A study of Homo sapiens with 16 samples.

Results

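SLC20A1, SLC20A2 and XPR1 encode the phosphate transporters in the plasma membrane of most human cells, and their transcripts were followed in MDA-MB-231 cells, a human triple-negative breast cancer line. The set holds 3 of the 60719 gene identifiers in the count tables, found by their symbols. It was chosen by measured values of these same libraries, because SLC20A1 counts were higher in cells without TXNIP and lower after an siRNA against MYC, so every SLC20A1 difference is given here as a description, with no test. SLC20A2 and XPR1 were tested.

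Phosphate enters most cells with sodium through the type III carriers PiT-1, the product of SLC20A1, and PiT-2, the product of SLC20A2. XPR1 is the phosphate exporter of animal cells. Its export activity is governed by inositol pyrophosphates, small messengers whose level follows the phosphate and energy state of the cell, and loss-of-function variants of SLC20A2 and XPR1 are known causes of primary brain calcification. PiT-1 and XPR1 were first found as receptors for retroviruses. TXNIP is an arrestin-like protein that restrains glucose uptake, and MYC encodes a transcription factor that promotes growth and binds E-boxes, with the core letters CACGTG.

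The untreated groups were parental 231 (2 libraries) and 231:TKO, the same line with TXNIP knocked out by CRISPR/Cas9 (2 libraries). The siRNA groups, harvested 48 hours after treatment, were parental 231+siNT, parental 231+siMyc, 231:TKO+siNT and 231:TKO+siMyc (3 libraries each), where siNT is a non-targeting siRNA and siMyc targets MYC. The knockout cells were grown out from single cells, so the effect of losing TXNIP and that of the clone cannot be told apart. The study describes as biological replicates the libraries of untreated cells and those of 231:TKO after siRNA. For siRNA-treated parental 231, no source used here says whether replicates came from separate cultures, and there the p-values may measure technical spread only.

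Each library held between 18953668 and 59799444 counts, and levels are given as CPM, the counts scaled to a common total. TXNIP was at 293 and 295 CPM in parental 231 and at 12.4 and 46.0 CPM in 231:TKO, and it lay between 6.76 and 10.3 CPM in the siRNA-treated 231:TKO libraries against 288 to 445 CPM in the parental ones. MYC lay between 122 and 148 CPM with siNT and between 59.2 and 64.9 CPM with siMyc. VIM, CD44, AXL, CAV1 and EGFR, listed as high in this line, were all above 130 CPM, whereas ESR1 reached at most 0.317 CPM and PGR at most 0.0777 CPM. Of the markers of other cells, PTPRC of leukocytes reached at most 1.53 CPM and ALB of hepatocytes at most 0.061 CPM. Of the other genes listed as low in this line, CDH1 was between 0.267 and 8.96 CPM, EPCAM between 12.6 and 31.7 CPM and ERBB2 between 73.2 and 108 CPM.

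A pair of libraries stood apart, parental 231+siNT replicate 1 and parental 231+siMyc replicate 3. Over 13038 genes their deviations from their group means had SDs of 0.243 and 0.229 on the log2 scale, against 0.125 to 0.150 in the other siRNA-treated parental libraries, and the deviations of the pair correlated with each other at r = 0.906. In both, long genes were low: their deviations correlated with log2 exonic length at r = -0.589 and -0.577. XPR1 has the longest exonic length of the transporters, and all 3 transporters were at the lowest level of their group in each of these libraries. The part of gene length in the values was not tested. The transporters' fold changes and the counts of called genes that rest on these libraries are given with and without them. The 231:TKO libraries without siRNA also differed from each other, with SDs of 0.244 against 0.0747 in parental 231, but there the deviations correlated with length at r = 0.0262 and -0.0262.

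On GRCh38, the build of the count tables, SLC20A1 (ENSG00000144136) is at chr2:112645939-112663825 on the plus strand, with 5493 exonic bases. SLC20A2 (ENSG00000168575) is on the minus strand, with 6424 exonic bases. XPR1 (ENSG00000143324) is at chr1:180632022-180890279 on the plus strand, with 8913 exonic bases. These lengths were the same in both annotation releases used for counting. SLC20A1-DT is a divergent transcript on the minus strand, whose start lies 219 bases before that of SLC20A1 and which runs away from it. It was between 0.816 and 1.74 CPM in all 16 libraries, and the pseudogenes SLC20A1P1, SLC20A1P2 and SLC20A1P3 had 0 counts in every library.

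Because one of the perturbed proteins is a factor that binds E-boxes, the start regions of SLC20A1 and XPR1 are shown, with 250 bases before the RefSeq start and 50 from it on (GRCh38.p14, plus strand, chr2:112645689-112645988 and chr1:180631772-180632071). Capitals mark CACGTG, which reads the same on both strands.
SLC20A1: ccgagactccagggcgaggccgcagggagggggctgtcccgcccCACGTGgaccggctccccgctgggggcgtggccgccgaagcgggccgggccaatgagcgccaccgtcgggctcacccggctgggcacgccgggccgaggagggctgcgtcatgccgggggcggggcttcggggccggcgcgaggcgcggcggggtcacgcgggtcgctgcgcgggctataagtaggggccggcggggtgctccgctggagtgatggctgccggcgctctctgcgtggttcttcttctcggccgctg
XPR1: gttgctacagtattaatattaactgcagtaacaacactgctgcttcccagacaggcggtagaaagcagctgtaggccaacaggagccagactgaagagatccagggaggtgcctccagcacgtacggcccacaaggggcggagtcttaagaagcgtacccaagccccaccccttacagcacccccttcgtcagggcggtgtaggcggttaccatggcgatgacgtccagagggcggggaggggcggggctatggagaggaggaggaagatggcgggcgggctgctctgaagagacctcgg
The SLC20A1 sequence held 1 CACGTG, its first base at -206 from the start, and 1 copy of the variant CACGCG at -51. CACGTG was present in 2548 of 35116 RefSeq start regions of the same length (7.26%) and CACGCG, searched on both strands, in 11.4%. The XPR1 sequence held neither, and on neither strand the variants CATGTG (in 11.1% of all start regions), CATGCG (in 7.05%) and CACGAG (in 6.78%). This says only that these letters are not in that window. The SLC20A1 sequence was also richer in G and C (77.7% with 42 CpG) than that of XPR1 (60% with 15 CpG).

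These are bulk libraries, in which fewer cells with a transcript and less of it per cell cannot be told apart. The untreated parental 231 libraries held 166 and 172 CPM of SLC20A1, and the 231:TKO libraries 373 and 341 CPM. With siNT, the parental libraries held 261, 302 and 287 CPM and the 231:TKO libraries 475, 478 and 485 CPM. With siMyc, they held 233, 248 and 226 CPM in parental 231 and 392, 405 and 403 CPM in 231:TKO. No library of one group fell within the range of another group, and the order from high to low was 231:TKO+siNT (479 ± 5.35 CPM, mean ± SD), 231:TKO+siMyc (400 ± 6.999), 231:TKO (357 ± 22.7), parental 231+siNT (283 ± 20.6), parental 231+siMyc (235 ± 11.2) and parental 231 (169 ± 4.64). The steps between neighbours in this order were between 43.2 and 79.3 CPM. How many of all genes separate these groups was not counted, so nothing is read from the separation. Untreated and siRNA-treated libraries differed in transfection and in the kind of reads counted, which cannot be told apart in that order.

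**Figure D1:**
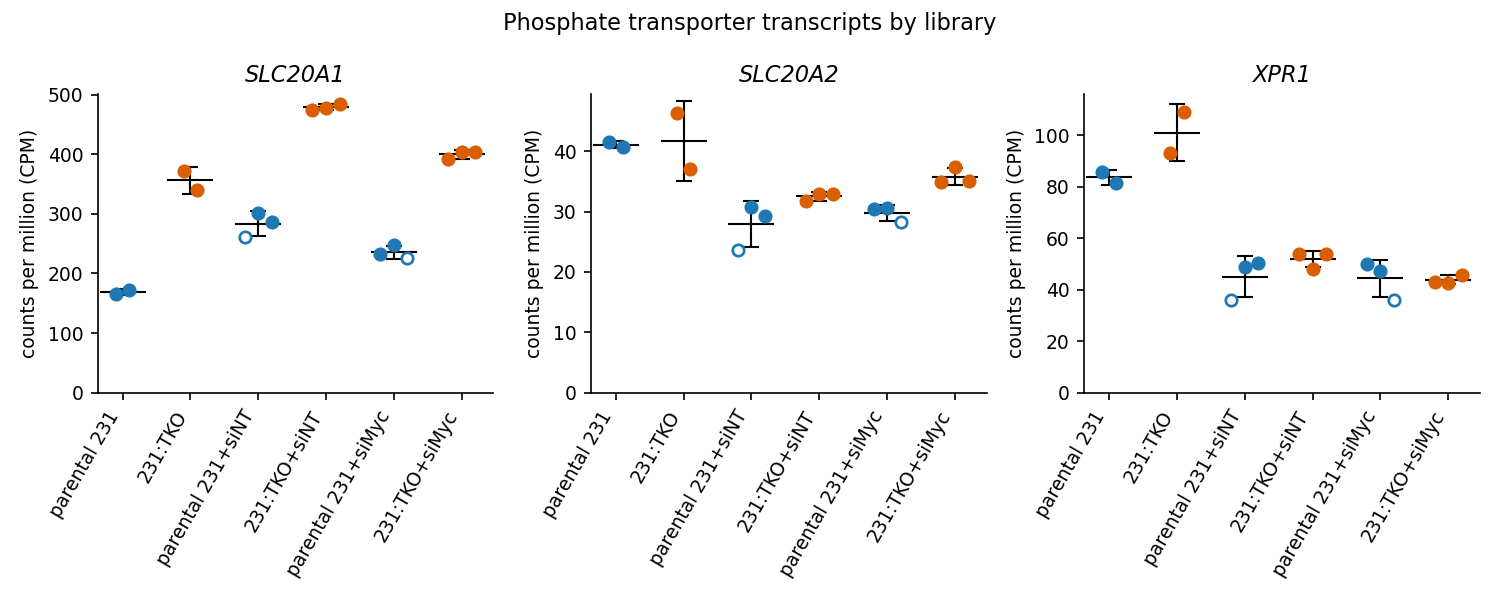
CPM of SLC20A1, SLC20A2 and XPR1 in each of the 16 libraries (points, blue for parental 231 and orange for 231:TKO), with the mean and SD of each group (bars); open points are the pair of parental libraries that stood apart. SLC20A1, chosen by its values in these libraries, separated all 6 groups. SLC20A2 lay between 23.6 and 46.3 CPM and XPR1 between 36.0 and 109 CPM, with groups that overlapped. How many of all genes separate the 6 groups was not counted. Untreated and siRNA-treated libraries also differed in transfection and in the kind of reads counted.

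The question of the first comparison was what differed between untreated 231:TKO and parental 231. The 231:TKO libraries held more counts (29925768 and 28830390) than the parental ones (18953668 and 19258213). Cell population and depth therefore cannot be told apart here, and the part of depth was not tested. Genes were tested with edgeR's quasi-likelihood test, and a gene was called at an adjusted p of at most 0.05. SLC20A1 was 2.17-fold as high in 231:TKO as in parental 231 (log2 fold change 1.12 ± 0.07, SE), the contrast that its choice rests on. The other importer, SLC20A2, which lies at chr8:42416475-42541926, was at 41.5 and 40.7 CPM in parental 231 and at 46.3 and 37.0 CPM in 231:TKO, so that the parental values lay between those of the knockout. Its log2 fold change was 0.06 ± 0.13 (adjusted p = 0.814). The exporter XPR1 was at 85.8 and 81.5 CPM in parental 231 and at 93.2 and 109 CPM in 231:TKO. These groups did not overlap, and its log2 fold change was 0.31 ± 0.09, which did not pass the threshold (adjusted p = 0.110). Among 19965 genes tested, 5.43% were called higher and 4.18% lower in 231:TKO, and neither tested transporter was among them. Leaving out 1 library leaves an arm with a single sample, which is then assumed to vary like the other arm. Without 231:TKO replicate 1 or 2, the spread came from the closely spaced parental pair alone, and calls rose from 1085 higher and 834 lower to 3453 and 3549 or to 3421 and 3376. In these fits XPR1 was at 0.40 (adjusted p = 0.00260) and 0.19 (adjusted p = 0.0238), and SLC20A2 at -0.13 (adjusted p = 0.0923) and 0.21 (adjusted p = 0.0215), on opposite sides of 0. Without parental 231 replicate 1 or 2, no gene was called, and XPR1 was at 0.35 (adjusted p = 0.489) and 0.27 (adjusted p = 0.578).

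The same contrast was available in the siNT-treated cells. Among siRNA-treated libraries, all parental ones were counted with a later annotation release than the 231:TKO ones and held more counts. Cell population therefore cannot be told apart from release and depth where 231:TKO and parental 231 are compared with siNT or with siMyc. The part of release and depth in those values was not tested. SLC20A1 was 1.62-fold as high in 231:TKO+siNT as in parental 231+siNT (log2 fold change 0.69 ± 0.09), and the value was 0.66 ± 0.06 without the library that stood apart. SLC20A2 was at 23.6, 30.8 and 29.3 CPM in parental 231+siNT and at 31.7, 32.8 and 33.0 CPM in 231:TKO+siNT. All knockout values lay above the parental ones, but the log2 fold change of 0.16 ± 0.11 did not pass the threshold (adjusted p = 0.305), and it was 0.07 ± 0.07 without parental replicate 1 (adjusted p = 0.465). XPR1 was at 36.0, 48.7 and 50.4 CPM in parental 231+siNT and at 53.8, 48.2 and 53.8 CPM in 231:TKO+siNT. Its groups overlapped, with a log2 fold change of 0.14 ± 0.13 (adjusted p = 0.424), or 0.02 ± 0.07 without parental replicate 1 (adjusted p = 0.817). In this contrast 16.1% of 23310 genes were called higher and 20.7% lower (3759 and 4819 genes), and 5060 and 5815 genes without parental replicate 1.

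With siMyc in both populations, SLC20A1 was 60.1% higher in 231:TKO (log2 fold change 0.68 ± 0.09), and the value was 0.65 ± 0.05 without parental replicate 3, the library that stood apart. SLC20A2 was at 0.18 ± 0.09 (adjusted p = 0.144), or 0.14 ± 0.07 without that library (adjusted p = 0.0832). The value of XPR1 was -0.10 ± 0.12 (adjusted p = 0.537). XPR1 was at 49.9, 47.2 and 36.0 CPM in parental 231+siMyc and at 43.1, 42.6 and 45.8 CPM in 231:TKO+siMyc. Its lowest parental value was the library that stood apart, and without that library the knockout libraries were below both parental ones, at -0.24 ± 0.06 (adjusted p = 0.00376). Of the 23561 genes tested here, 18.8% were called higher and 21.7% lower (4441 and 5117 genes), and 5274 and 6080 genes without that library.

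**Figure D2:**
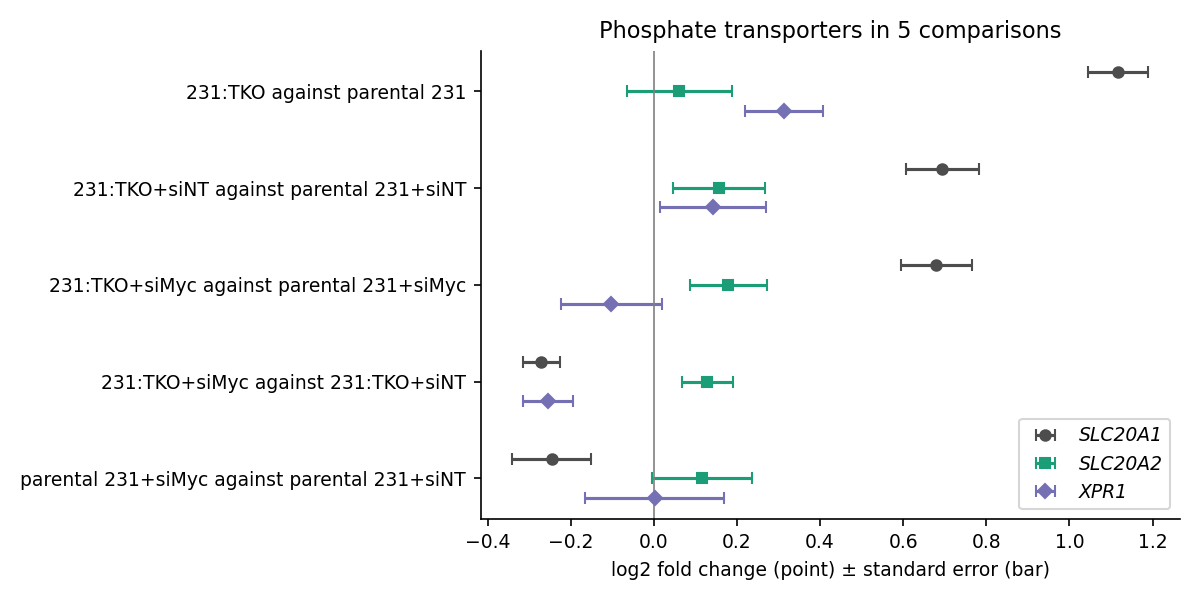
Log2 fold changes of the transporters (points) with their standard errors (bars) in 5 comparisons. SLC20A1 was on the high side in the 3 contrasts of 231:TKO with parental 231 (0.68 to 1.12) and on the low side in both siMyc contrasts (-0.27 and -0.25), whereas SLC20A2 stayed between 0.06 and 0.18.

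The genes around SLC20A1 on chromosome 2 were also higher in 231:TKO. Within 10 Mb on either side, there were 64 genes averaging 1 CPM or more, and their median value in the untreated contrast was 0.50 on the log2 scale, against 0.0048 over all genes tested. Of them, 58 had a value above 0, and 29 were called higher and 2 lower. Over all genes tested, with no floor of 1 CPM, 5.43% were called higher and 4.18% lower. SLC20A1 lay 0.62 above that median, and 4 neighbours had a larger value than SLC20A1. Relative to the parental mean, the neighbours' median was 0.55 in 231:TKO replicate 1 and 0.48 in replicate 2, where SLC20A1 was at 1.19 and 1.05. In the siNT-treated cells the median of 74 neighbours was 0.47, against -0.03 over all genes tested. Of these neighbours 45 were called higher and 7 lower, where 16.1% and 20.7% of all genes were called. SLC20A1 lay 0.22 above the neighbours' median, and 25 neighbours had a larger value.

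Windows of 2.5, 5 and 20 Mb gave medians of 0.54, 0.51 and 0.46 in the untreated contrast and of 0.62, 0.48 and 0.39 with siNT. The nearest gene on each side with at least 1 CPM was SLC20A1-DT, with log2 fold changes of 0.15 and 0.09 in those contrasts, and CKAP2L, which encodes a spindle protein, with 0.40 and 0.79. By contrast, the median of the neighbours of SLC20A2 was 0.02 in the untreated contrast and -0.09 with siNT, and that of the neighbours of XPR1 was 0.08 and 0.05. The part of this regional shift in the SLC20A1 values was not tested. With siMyc, the median of the SLC20A1 neighbours was -0.0083 in 231:TKO and 0.02 in parental 231.

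**Figure D3:**
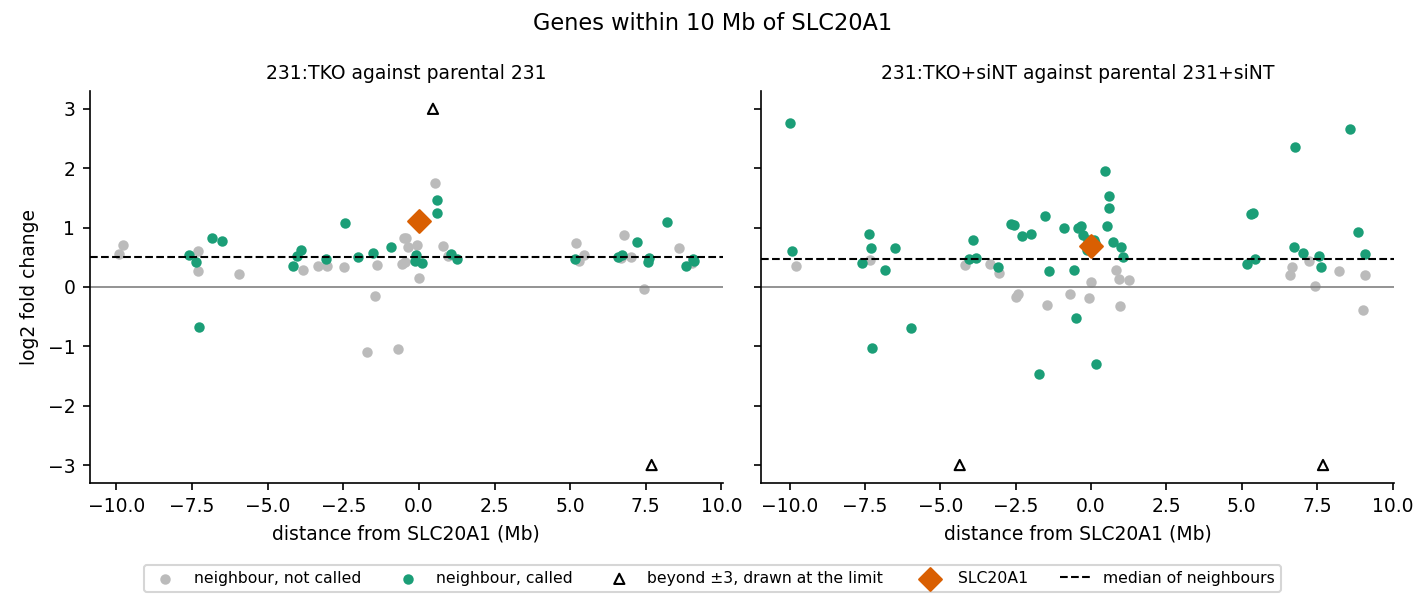
Log2 fold changes of the genes within 10 Mb of SLC20A1 by their distance from it, for untreated cells (left) and siNT-treated cells (right); green points passed the threshold, triangles lie beyond the drawn range, and the dashed line is the median of the neighbours. The medians were 0.50 and 0.47, and SLC20A1 (diamond) was at 1.12 and 0.69.

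The siMyc comparisons asked which transcripts depend on MYC in each population. Among all genes, siMyc was followed by calls in 13.3% (higher) and 13.9% (lower) of 22450 genes in 231:TKO, but in 0.24% and 0.354% of 23728 genes in parental 231. Those parental calls, 57 higher and 84 lower, numbered 2231 and 2442 without the pair of libraries that stood apart and 3250 and 3113 with a factor for the pair, but 0 without any 1 of the other 4 parental libraries. In 231:TKO, SLC20A1 was 17.1% lower with siMyc than with siNT (log2 fold change -0.27 ± 0.04), and its ranges of 392 to 405 and 475 to 485 CPM did not overlap. In parental 231 it was 15.7% lower (-0.25 ± 0.09), and -0.28 ± 0.05 without the pair of libraries that stood apart. The difference between these responses, from 1 fit of the 12 siRNA libraries, was 0.0039 ± 0.11, or -0.03 ± 0.08 without the pair. These contrasts too were used to choose SLC20A1. The level left after siMyc in 231:TKO, 400 CPM, was above the 283 CPM of parental 231+siNT. The study lists SLC20A1 among transcripts that depended on Myc in 231:TKO but not in parental 231. By RT-qPCR it reports a fall after MYC knockdown in 231:TKO and no effect in parental 231, a different assay from these counts. It also reports more Myc binding for SLC20A1 after TXNIP loss.

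XPR1 fell with siMyc in 231:TKO. It was at 53.8, 48.2 and 53.8 CPM with siNT and at 43.1, 42.6 and 45.8 CPM with siMyc, with no overlap, and its log2 fold change of -0.25 ± 0.06 passed the threshold (adjusted p = 0.00301). The call held with each of these 6 libraries left out in turn (adjusted p from 0.000146 to 0.0324), but in 1 fit of all 12 siRNA libraries, where the parental libraries add to the estimate of spread, the value was -0.23 ± 0.13 (adjusted p = 0.350). In parental 231, XPR1 was at 36.0, 48.7 and 50.4 CPM with siNT and at 49.9, 47.2 and 36.0 CPM with siMyc. The lowest value of each group was the library that stood apart, and the log2 fold change was 0.0016 ± 0.17 (adjusted p = 0.998), or -0.01 ± 0.06 without the pair (adjusted p = 0.935). The difference between the responses of 231:TKO and parental 231 was -0.23 ± 0.18 and did not pass the threshold (adjusted p = 0.9999), nor did it without the pair (-0.28 ± 0.09, adjusted p = 0.261) or with a factor for the pair (-0.23 ± 0.08, adjusted p = 0.260).

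SLC20A2 had values on the other side of 0. In 231:TKO it was at 31.7, 32.8 and 33.0 CPM with siNT and at 34.8, 37.4 and 35.1 CPM with siMyc. These ranges did not overlap, yet the log2 fold change of 0.13 ± 0.06 did not pass the threshold (adjusted p = 0.137). In parental 231 it was at 23.6, 30.8 and 29.3 CPM with siNT and at 30.4, 30.7 and 28.3 CPM with siMyc, with a log2 fold change of 0.12 ± 0.12 (adjusted p = 0.742) and of 0.04 ± 0.06 without the pair (adjusted p = 0.735). The difference between the responses was 0.04 ± 0.14 (adjusted p = 0.9999), or 0.05 ± 0.10 without the pair (adjusted p = 0.930). Over all genes that difference was called in 0% of 25812 genes by edgeR, where 1039 had an unadjusted p under 0.05 and DESeq2 called 6. Without the pair, edgeR called 25 genes higher and 38 lower, and with a factor for the pair 147 genes in all.

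Levels of different genes were compared per length, as TPM, where counts are divided by exonic length before scaling to a common total. In parental 231, SLC20A1 was at 139 ± 2.18 TPM, XPR1 at 42.3 ± 2.02 TPM and SLC20A2 at 28.9 ± 0.769 TPM, and SLC20A1 was the most abundant of the transporters per length in every library, at 136 TPM or more against at most 54.7 TPM of XPR1. SLC20A1 made up 82.8% ± 0.603 of the importer TPM. That share was 90.9% ± 0.781 in 231:TKO. In the siRNA-treated cells it was 92.3% ± 0.501 in parental 231+siNT, 94.5% ± 0.0751 in 231:TKO+siNT, 90.2% ± 0.232 in parental 231+siMyc and 92.9% ± 0.193 in 231:TKO+siMyc. The share with siMyc was below that with siNT in every library of both populations. SLC20A1 was chosen for its higher level in 231:TKO and its fall with siMyc. The order of these shares therefore largely restates that choice and is given as a description. XPR1 and SLC20A2 were closer to each other, with an XPR1 to SLC20A2 ratio from 0.885 ± 0.0593 in 231:TKO+siMyc to 1.79 ± 0.476 in 231:TKO.

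The ratio of importer TPM (SLC20A1 plus SLC20A2) to exporter TPM (XPR1) was 3.97 ± 0.223 in parental 231 and 6.36 ± 1.16 in 231:TKO. With siNT it was 11.2 ± 1.36 in parental 231 and 15.9 ± 1.01 in 231:TKO, and with siMyc 9.69 ± 1.44 and 15.9 ± 0.649. The highest parental ratios, 12.7 with siNT and 11.3 with siMyc, were those of the pair of libraries that stood apart. In each of the 3 settings the lowest 231:TKO library was above the highest parental one. Since SLC20A1, chosen for its higher level in 231:TKO, makes up most of the importer TPM, this order largely restates that choice and is given as a description. Within 231:TKO, the siNT and siMyc ranges, 15.1 to 17.0 and 15.3 to 16.6, overlapped, as SLC20A1 and XPR1 were both lower with siMyc. The ratio was higher in every siRNA group than in the untreated groups, where mean XPR1 was 42.3 and 50.7 TPM against 17.8 to 21.9 TPM in the siRNA groups. A ratio of transcripts is not a measure of phosphate flux.

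**Figure D4:**
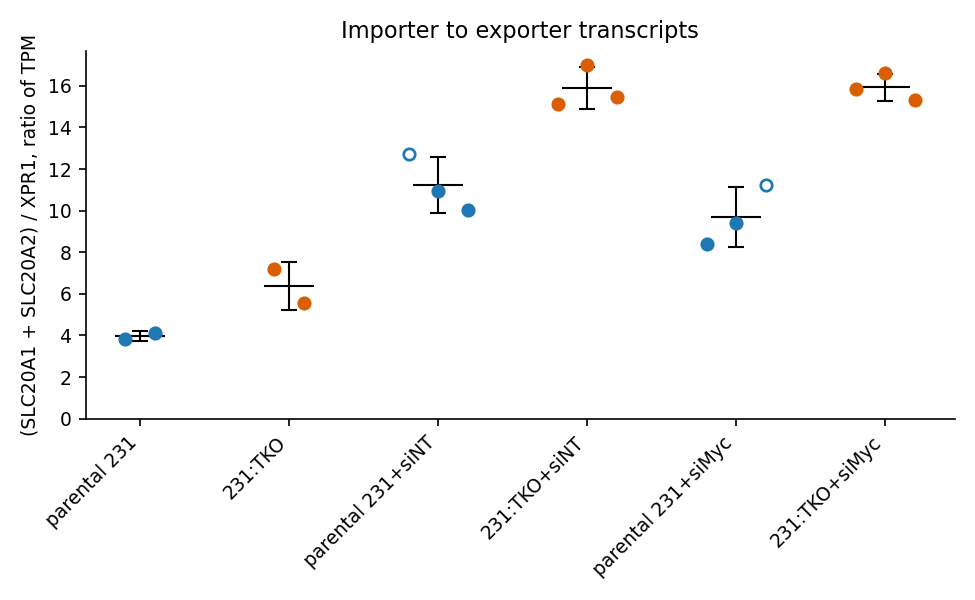
Ratio of the summed TPM of SLC20A1 and SLC20A2 to the TPM of XPR1 in each library (points), with group means and SDs (bars); open points are the pair of parental libraries that stood apart. The ratio was higher in 231:TKO than in parental 231 in each setting, which largely restates the choice of SLC20A1, and the siNT and siMyc libraries of 231:TKO overlapped around 15.9.

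Other genes that handle phosphate were followed from a list of 43 genes, chosen with results of these libraries known. The type II sodium-phosphate importers of kidney and gut, SLC34A1, SLC34A2 and SLC34A3, were at most 0.0694, 0.175 and 0.467 CPM, so the type III importers were the sodium-phosphate importers with sizeable counts. In the whole list, 31 genes had a median of at least 1 CPM.

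In untreated cells, 3 of 35 tested list genes were higher in 231:TKO than in parental 231 and 1 was lower. Of all genes 5.43% and 4.18% were called, so these counts were near the background. The 4 calls were 0 without either parental library, 19 without 231:TKO replicate 1 and 18 without replicate 2, fits in which 1 arm held a single library. SLC37A2, a sugar phosphate and phosphate exchanger of the endoplasmic reticulum, rose by 1.25 ± 0.12 on the log2 scale (adjusted p = 0.0105), and its relative SLC37A1 fell by 1.01 ± 0.12 (adjusted p = 0.0138). STC1, a secreted glycoprotein that raises phosphate uptake in the kidney, rose by 1.06 ± 0.14 (adjusted p = 0.0207). ANKH, a membrane protein that raises pyrophosphate outside the cell, rose by 0.46 ± 0.08 (adjusted p = 0.0354). The median of the list was -0.06. Of 11 tested genes of inositol pyrophosphate metabolism, counted together with the XPR1 partner KIDINS220, 0 were called (edgeR). Of 9 of the hormone axis 1 was called, STC1. Sets of this size hold about 1 call at the background share, and nothing is read from these counts.

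In siNT-treated cells, 8 of 38 tested list genes were higher and 10 lower in 231:TKO, against 16.1% and 20.7% of all genes, with a list median of -0.05 against -0.03 over all genes. Without parental 231+siNT replicate 1, the library that stood apart, 13 of 37 were higher and 14 lower. In that fit 5060 and 5815 of all 22568 genes were called. Leaving out another single library gave 13 to 17 calls, with 5 higher without 231:TKO+siNT replicate 2 and 6 lower without replicate 3. STC1 (0.58 ± 0.11), SLC37A2 (0.39 ± 0.10) and ANKH (0.55 ± 0.12) were again higher. NT5E, the ectonucleotidase that releases phosphate from AMP, was higher by 0.82 ± 0.10 and VDR, the vitamin D receptor, by 1.85 ± 0.14. The mitochondrial phosphate carrier SLC25A3 (-0.35 ± 0.09) and both inorganic pyrophosphatases, PPA1 (-0.50 ± 0.11) and PPA2 (-0.71 ± 0.13), were lower. Among the 12 tested genes of inositol pyrophosphate metabolism, KIDINS220 included, the kinase PPIP5K1 was higher (0.44 ± 0.12). ITPK1 (-0.76 ± 0.09), IP6K2 (-0.52 ± 0.09), NUDT4 (-0.56 ± 0.09) and MINPP1 (-0.41 ± 0.09) were lower. With siMyc in both populations, 12 of 37 tested list genes were higher in 231:TKO and 7 lower, against 18.8% and 21.7% of all genes, with a list median of 0.03. Without parental 231+siMyc replicate 3, which stood apart, 12 were higher and 11 lower, where 5274 and 6080 of all 22849 genes were called. The list median was then -0.03.

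With siMyc in 231:TKO, 8 of 36 tested list genes rose and 7 fell, against 13.3% and 13.9% of all genes, and the list median was 0.08 against 0.0069 over all genes. In 1 fit of the 12 siRNA libraries 2 rose (SLC37A2 and ABCC6) and 3 fell (STC1, PPA1 and NUDT3). In that fit 1363 and 1130 of all 25812 genes were called. With 1 library left out, the 15 calls numbered 6 without siNT replicate 3, 8 without siNT replicate 1, 9 without siMyc replicate 2 and 10 to 16 otherwise. STC1 fell most, by 0.73 ± 0.06 (adjusted p = 1.43e-08), from 102.2 ± 5.29 to 61.9 ± 4.90 CPM. PPA1 fell by 0.55 ± 0.06 (adjusted p = 1.61e-07), from 154 ± 8.97 to 106 ± 5.40 CPM. NUDT3, a phosphatase that removes phosphate from inositol pyrophosphates, fell by 0.33 ± 0.06 and SLC25A3 by 0.21 ± 0.04. The transporter ABCC6, which supports release of nucleotides from which pyrophosphate is made, rose by 0.73 ± 0.15, at only 2.04 to 3.41 CPM on average. SLC37A2 rose by 0.37 ± 0.06, SLC37A1 by 0.26 ± 0.08 and PDGFRB, another gene of primary brain calcification, by 0.33 ± 0.08. Of the kinases that make inositol pyrophosphates or their precursor, IP6K1 rose by 0.19 ± 0.06, and PPIP5K2 and IPPK fell by 0.18 ± 0.07 and 0.21 ± 0.07.

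In parental 231, siMyc was followed by no call in the 39 tested list genes by edgeR, where 5 had an unadjusted p under 0.05 and DESeq2 called 2. STC1 was at -0.60 ± 0.13 (adjusted p = 0.0831), PPA1 at -0.40 ± 0.13 (adjusted p = 0.212) and SLC37A2 at 0.35 ± 0.10 (adjusted p = 0.155). Without the pair of libraries that stood apart, 4 of 38 list genes rose and 4 fell, where 2231 and 2442 of all 22445 genes were called. With a factor for the pair, 7 of 39 rose and 6 fell, where 3250 and 3113 of all 23728 genes were called. The difference between the responses of 231:TKO and parental 231 was called in none of 40 list genes by edgeR (1 with an unadjusted p under 0.05) and in 0 by DESeq2. In CPM, STC1 was at 76.4 ± 0.787 in parental 231 and 155 ± 29.6 in 231:TKO, and at 65.2 ± 7.83 in parental 231+siNT and 42.4 ± 4.62 in parental 231+siMyc.

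**Figure D5:**
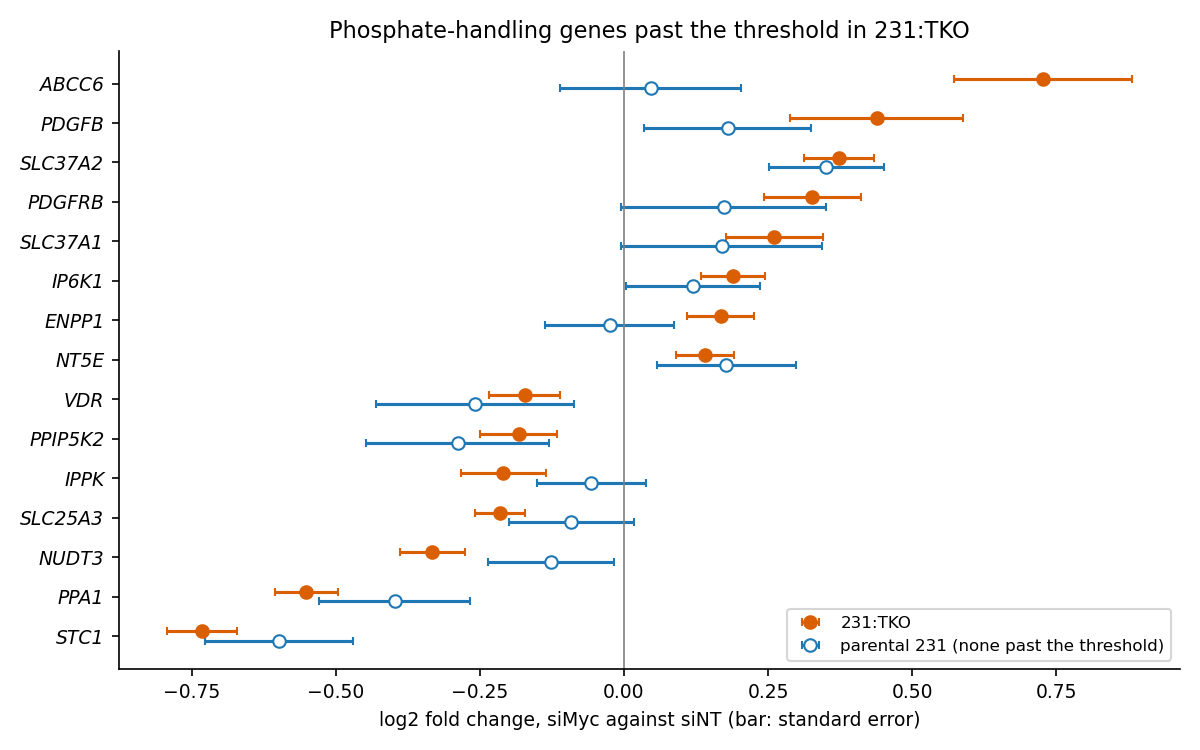
Log2 fold changes with siMyc of the 15 phosphate-handling genes past the threshold in 231:TKO (filled points), beside the values of these genes in parental 231 (open points, none past the threshold); bars are standard errors. STC1 (-0.73 and -0.60) and PPA1 (-0.55 and -0.40) were the lowest in both populations, and ABCC6 (0.73 and 0.05) was apart.

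The genes whose levels followed each transporter most closely were sought by Pearson correlation of log2 CPM over the 16 libraries, after centring untreated and siRNA-treated libraries separately, among 10936 genes that have a symbol and average 5 CPM or more. These libraries share clone, depth and treatment, so the values are descriptions. Nearest to SLC20A1 were PIAS2 (r = 0.987), HPSE (0.974), NARS1 (0.965), SRPX (0.960) and APCDD1L-DT (0.958). PIAS2, which encodes a SUMO ligase, was at 17.7 CPM in parental 231 and 41.9 CPM in 231:TKO, and heparanase (HPSE) was at 9.97 and 25.4 CPM. Nearest to SLC20A2 were UBQLN2 (r = 0.940), KDM5B (0.925), LIMCH1 (0.920), VPS35L (0.918) and MTM1 (0.916). For XPR1 they were ZFR (r = 0.932), GZF1 (0.922), WDR82 (0.917), ABCC4 (0.917) and FAM120A (0.909), and the 3 sets of 5 had no gene in common. Without centring, 1, 2 and 1 of the 5 remained for SLC20A1, SLC20A2 and XPR1, and with the 12 siRNA libraries alone 0, 1 and 1.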

How the data were processed

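RNA of MDA-MB-231 cells was sequenced from stranded mRNA libraries (16 in all). The authors aligned the reads with STAR to GRCh38 and counted them per Ensembl gene with featureCounts 1.6.3, on the strand opposite to the read and with the largest overlap deciding, and deposited raw counts without normalization. The untreated libraries hold counts of single reads and the siRNA-treated ones of read pairs; release 102 was used, except release 104 for siRNA-treated parental 231.

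CPM are counts scaled to a common library total, and TPM divide counts by exonic length first. Genes with more than 5 counts summed over a comparison's libraries were tested with edgeR 4.0.16 (quasi-likelihood, TMM, robust, no covariate) on the libraries compared. P-values were adjusted by Benjamini-Hochberg over every gene tested in the comparison, and calls needed an adjusted p of at most 0.05. Standard errors are the log2 fold change divided by the root of F. The fits were tested on simulated data.

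Alternatives were DESeq2 1.42.0, its size factors, other filters, a replicate block, 1 fit of the 12 siRNA libraries, subtraction of the neighbours' median and each replicate left out. Leaving out, or fitting a factor for, the pair of libraries that stood apart was added after seeing the data. Members and lists were chosen with earlier results of these data known. Named genes were the transporters, TXNIP, MYC, the phosphate-handling list, the 5 genes most like each transporter and the nearest neighbours. PECAM1, a planned endothelial marker, was not matched to an identifier and was not used here. The genome supplied was of another build and was not used here; start regions came from a RefSeq table.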

Additional observations from a re-analysis of the deposited data

Results flagged for a closer look

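Of 33 genes (the transporters and the list genes with a mean of at least 1 CPM), 4 moved in opposite directions between 231:TKO and parental 231 in untreated and in siNT-treated cells, with every knockout library on one side of every parental library in each setting. The difference between the settings was not tested. Annotation release differed between the populations only in the siRNA-treated libraries, and its part in these values was not tested. How many of all genes do the same was not counted, so nothing is read from this number. PDGFRB had log2 fold changes of -1.19 untreated and 0.97 with siNT, a difference of -2.16. VDR had -0.24 and 1.85, a difference of -2.10. PPA2 had 0.60 and -0.71, a difference of 1.31. IPMK, which makes precursors of inositol pyrophosphates, had -0.11 and 0.28, a difference of -0.39. None of the 4 passed the threshold in the untreated cells, and IPMK did not with siNT either. The transporters themselves were not among these genes.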

How the results depend on the processing

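For SLC20A1, subtracting the median of the genes within 10 Mb left 0.62 of 1.12 in untreated cells, 0.22 of 0.69 with siNT and 0.21 of 0.68 with siMyc. With windows of 2.5, 5 and 20 Mb the subtraction left 0.58, 0.61 and 0.65 in untreated cells and 0.07, 0.21 and 0.30 with siNT. In 1 fit of the 12 siRNA libraries SLC20A1 was at -0.24 for siMyc in 231:TKO. Subtracting the 10 Mb median gave 0.39 for SLC20A2 between the siMyc-treated populations. XPR1 passed the threshold in untreated cells with no filter on low counts (0.32, adjusted p = 0.0472), did not pass with siMyc in 231:TKO in 1 fit of the 12 siRNA libraries (-0.23), and passed between the siMyc-treated populations without the pair that stood apart (-0.24). Its value near 0 for siMyc in parental 231 was -0.0062 with no filter, -0.0096 with more than 5 counts in every library and -0.011 without the pair. With 1 library left out at a time, the values were 1.03 to 1.18 for SLC20A1, -0.13 to 0.21 for SLC20A2 and 0.19 to 0.40 for XPR1 in untreated cells. For XPR1 they were -0.14 to 0.13 with siMyc in parental 231 and -0.24 to -0.0064 between the siMyc-treated populations. The difference between the siMyc responses ranged from -0.081 to 0.038 for SLC20A1 and from -0.068 to 0.097 for SLC20A2. The cause of these shifts was not tested.

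Called list genes in untreated cells (4) numbered 9 with DESeq2, 7 with no filter, and 0 (without parental 231 replicate 1) to 19 (without 231:TKO replicate 1) with 1 library left out. With siMyc in 231:TKO (15) they numbered 5 in 1 fit of the 12 siRNA libraries and 6 (without siNT replicate 3) to 16 with 1 library left out. With siMyc in parental 231 (0) they numbered 2 with DESeq2, 1 with no filter, 3 in 1 fit, 8 without the pair, 13 with a factor for it, and 0 to 1 with 1 library left out. Of 775 combinations of a called list gene, TXNIP or MYC with an alternative, 671 kept their direction and call, 0 turned direction and the rest lost the call.

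Same-numbered libraries did not regularly deviate together (r from -0.825 to 0.651 over 14 pairs), so the replicate numbers were taken as names only. The 2 untreated pairs hold the same value, 0.0226, as deviations in a group of 2 libraries mirror each other. With the replicate number as a block, XPR1 was at -0.25 with siMyc in 231:TKO (adjusted p = 0.000106) and at 0.31 in untreated cells (adjusted p = 0.180), and the block changed no call of SLC20A2 or XPR1. TXNIP missed the threshold in untreated cells (-3.29 ± 0.65, adjusted p = 0.0587), where its 231:TKO libraries differed.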

Other observations

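Several phosphate-handling genes were at other levels in siNT-treated than in untreated parental 231. Transfection, read type and annotation release all differ between those libraries and cannot be told apart in the parental libraries alone. SLC37A2 was at 50.8 ± 1.61 CPM in parental 231 and at 281 ± 17.3 CPM in parental 231+siNT. NUDT3 was at 173 ± 1.43 and 57.3 ± 4.69 CPM, and NUDT4 at 27.6 ± 0.836 and 92.9 ± 7.47 CPM. Klotho (KL), the co-receptor of the phosphate hormone FGF23, reached at most 0.102 CPM, whereas its receptor FGFR1 lay between 141 and 190 CPM. The alkaline phosphatase ALPL reached at most 0.083 CPM, and ENPP1, which makes pyrophosphate outside the cell, lay between 75.8 and 266 CPM.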
